A study of Mus musculus with 32 samples.

Results

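The circadian clock genes described here are Per1, Per2, Per3, Cry1, Cry2, Arntl, Clock, Npas2, Nr1d1 and Dbp, chosen by symbol as the core components of the molecular clock and its best known outputs. All 10 are rows of the count tables, which hold 23420 genes, and all 10 are among the 15589 genes that passed the filter on low counts. RNA was sequenced from striatal punches of 16 naïve mice of about 50 days of age by the labels (the study's methods give an older upper limit). The 8 B6.D2 congenic mice, of Line 4a, carried a DBA/2J-derived (D2) segment of chromosome 11 on one chromosome of the pair in an otherwise C57BL/6J (B6) genome, and the 8 B6 mice were their wild-type littermates. A D2 segment holds many variants and genes, so a difference between the genotypes cannot be assigned to a single gene, and its cause was not tested. Mice numbered 1 to 4 in either genotype had their libraries run on lanes 5 and 6 and those numbered 5 to 8 on lanes 7 and 8, and the lane files were summed so that n counts mice. Home cage and sex are not in the labels of single mice. The time of day at which each brain was taken is not given in the sources used here.

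In the mammalian clock, Clock (or its paralog Npas2) pairs with Arntl, also called Bmal1, and the pair binds E-box sequences and turns on the Per and Cry genes, Nr1d1 and Dbp. PER and CRY proteins then repress that pair, while NR1D1, also called REV-ERB alpha, represses Arntl through ROR elements, so that over the day Arntl RNA runs opposite in phase to Nr1d1 and Dbp RNA. The clock runs in most tissues, the striatum included, and Per1 is also induced in neurons by activity and by glucocorticoids.

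Promoter sequences were found for 9 of the 10 genes in RefSeq (GRCm38.p6, the mm10 assembly), in windows from 250 bases before to 50 bases after an annotated start. Per2 was not matched. Windows were searched on both strands for the E-box CACGTG, its variant CACGTT, the D-box TTANGTAA, the ROR element core TAGGTCA and the cAMP response element TGACGTCA. These letters occur in 7.15%, 4.68%, 2.32%, 2.61% and 1.79% of the 32851 promoter windows of the same length, and in a window of 8.09%, 5.44%, 2.72%, 2.97% and 2.03% of the 27025 genes. The E-box was in a window of 2 members (Per1 and Cry1), the variant in 3 (Cry1, Cry2 and Nr1d1), the D-box in 1 (Per3), the ROR core in 1 (Arntl) and the cAMP response element in none. Clock, Npas2 and Dbp windows held none of these letters. A match describes the window and is no proof of binding. The 4 gene pairs past adjustment below hold 6 genes, and the windows of the 5 that held a match (all but Dbp) are shown 5′ to 3′ on the gene's strand, with matched letters in capitals. The capitals mark the ROR core in Arntl (the later of the starts in the table, chr7:113207261-113207560, plus strand), the CACGTT variant read on the opposite strand in Nr1d1 (chr11:98775328-98775627, minus strand) and in Cry2 (chr2:92434020-92434319, minus strand), a pair of D-boxes in Per3 (chr4:151044616-151044915, minus strand), and in Cry1 the variant on the opposite strand followed by an E-box (chr10:85185005-85185304, minus strand).
Arntl promoter: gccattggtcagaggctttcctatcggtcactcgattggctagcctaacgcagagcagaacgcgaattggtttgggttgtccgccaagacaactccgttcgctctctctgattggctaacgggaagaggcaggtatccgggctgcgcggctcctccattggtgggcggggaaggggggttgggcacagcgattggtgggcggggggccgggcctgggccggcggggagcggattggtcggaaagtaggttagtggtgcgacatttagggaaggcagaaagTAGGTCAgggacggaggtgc
Nr1d1 promoter: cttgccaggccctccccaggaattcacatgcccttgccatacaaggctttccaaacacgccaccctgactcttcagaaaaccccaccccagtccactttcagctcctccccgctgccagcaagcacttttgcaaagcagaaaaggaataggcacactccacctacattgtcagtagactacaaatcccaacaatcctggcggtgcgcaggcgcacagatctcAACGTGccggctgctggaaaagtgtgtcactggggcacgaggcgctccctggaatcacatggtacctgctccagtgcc
Cry2 promoter: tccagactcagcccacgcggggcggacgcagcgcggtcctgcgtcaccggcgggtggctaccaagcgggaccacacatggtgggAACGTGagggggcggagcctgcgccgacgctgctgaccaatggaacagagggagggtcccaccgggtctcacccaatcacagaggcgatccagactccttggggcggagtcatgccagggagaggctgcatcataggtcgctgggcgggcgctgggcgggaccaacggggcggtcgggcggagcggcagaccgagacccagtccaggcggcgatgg
Per3 promoter: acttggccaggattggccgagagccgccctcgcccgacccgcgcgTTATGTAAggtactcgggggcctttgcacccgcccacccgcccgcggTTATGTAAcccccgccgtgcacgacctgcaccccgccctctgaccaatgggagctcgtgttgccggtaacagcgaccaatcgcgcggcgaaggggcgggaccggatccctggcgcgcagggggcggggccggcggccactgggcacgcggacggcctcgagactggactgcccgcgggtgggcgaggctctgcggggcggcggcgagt
Cry1 promoter: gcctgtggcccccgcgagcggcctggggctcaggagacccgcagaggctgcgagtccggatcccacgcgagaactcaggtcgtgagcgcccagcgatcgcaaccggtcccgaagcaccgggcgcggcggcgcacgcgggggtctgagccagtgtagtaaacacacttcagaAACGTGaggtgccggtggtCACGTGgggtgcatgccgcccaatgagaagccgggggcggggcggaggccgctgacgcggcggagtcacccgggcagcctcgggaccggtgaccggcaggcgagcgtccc

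Gene reads per library numbered 19032826 to 33748353 for B6 and 24912413 to 32085311 for B6.D2 mice. The members had 414 (Cry1) to 6103 (Nr1d1) reads in a mouse. In the mouse with a member's fewest reads, counting error was 1.74% (Nr1d1) to 4.91% (Cry1) of the value. The SD between mice of a genotype was 2.64% of the mean (Cry2, B6.D2 mice) to 23.1% (Per1, B6 mice). For Cry2, with a counting error of 1.80%, counting was not small beside the spread in B6.D2 mice. Striatal projection neuron markers summed to 5697 to 8394 CPM (gene reads scaled to a common library size, TMM-adjusted) in B6 mice and 6199 to 7318 in B6.D2 mice, with dopamine receptor 2 (Drd2) at 136 ± 22.9 and 139 ± 13.2 CPM (SD, n = 8 each). Hypothalamic markers, which would mark tissue near the suprachiasmatic pacemaker, summed to at most 13.9 CPM, and 7 of the 11 were at 0 in at least 1 mouse. Most of that sum was Vip, with means of 8.59 CPM in B6 and 6.34 CPM in B6.D2 mice, so the sum rests largely on 1 gene. The 12 cortical glutamatergic markers were all lower in B6.D2 mice, 9 of them at an unadjusted p under 0.05 in edgeR's quasi-likelihood test, with a median log2 fold change of −0.54, against 45.1% lower and 10% at that p over all genes tested. Their sum was 753 to 1188 CPM in B6 mice and 556 to 1030 CPM in B6.D2 mice, and no cortical marker was at 0. In bulk tissue, fewer cells of a type and less RNA per cell cannot be told apart. One library stood apart: in B6.D2 mouse 1, log2 CPM relative to the other mice fell by 0.35 per doubling of transcript length, against slopes from −0.02 to 0.06 in the remaining 15 mice, and 27.3% of its reads aligned to more than 1 place.

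The members differed in level. Per kilobase of the longest annotated coding transcript, over the 16 mice, Nr1d1 was highest at 62.7 CPM per kb, followed by Dbp at 43.4 and Cry2 at 37.9. Per1 was at 21.2, Npas2 at 15.7, Arntl at 13.4, Per3 at 11.7, Clock at 10.1, Per2 at 7.04 and Cry1 at 6.79 CPM per kb. The order depends on the length used. All annotated exons span 9608 bases for Per3, 6320 for Cry2 and 2945 for Dbp, against 5999, 3976 and 1789 in that transcript. Neighbours in this order overlapped in their ranges over mice, with the exception of Cry2 (34.3 to 40.8) and Per1 (14.5 to 31.1), and Nr1d1 (53.9 to 70.2) and Dbp (32.3 to 54.1) met at their edges. Clock (from 5.14) overlapped Per2 (5.84 to 8.65) through B6.D2 mouse 1 alone, and without that mouse the lowest Clock value was 9.21. The values over single mice varied most for Clock and Per1, whose highest mouse was 2.33 and 2.14 times the lowest, and least for Cry2 at 1.19 times. Without B6.D2 mouse 1 the ratio was 1.30 for Clock and 1.83 for Per1, so that Clock went from the highest ratio to the second lowest, above Cry2 alone. Within genotypes, the SD of log2 CPM of Cry2 was larger than that of only 4.91% of genes tested, and that of Per1 larger than 78.5%.

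**Figure D1:**
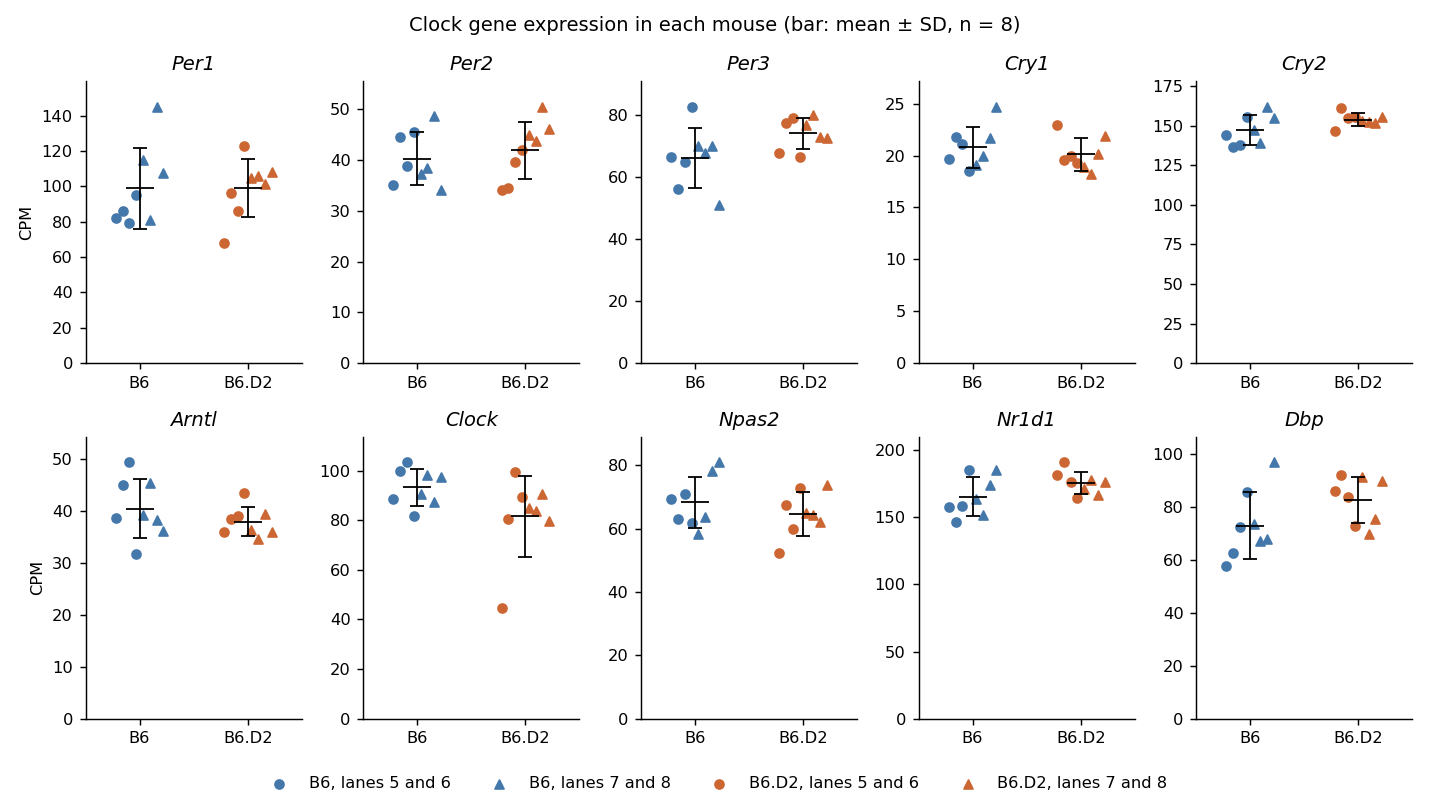
CPM of the 10 clock genes in each mouse, by genotype (circles, mice of lanes 5 and 6; triangles, mice of lanes 7 and 8; bars, mean ± SD, n = 8 mice). The genotypes overlap for every gene, and the lowest Clock value, 44.4 CPM, belongs to B6.D2 mouse 1.

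The activators were not separated by genotype. Arntl (chromosome 7, 113178471 to 113314126) had a lowest, median and highest value of 31.8, 38.9 and 49.5 CPM in B6 mice and of 34.7, 37.5 and 43.5 CPM in B6.D2 mice. Both its lowest and its highest mouse were B6, mouse 4 and mouse 3, so the B6.D2 values lay inside the B6 range. The log2 fold change, B6.D2 minus B6, was −0.09 (SE 0.08), with an unadjusted p of 0.242 and an FDR of 0.685 in edgeR's quasi-likelihood test. Clock (chromosome 5, 76209868 to 76305603) ranged from 81.6 to 103 CPM in B6 mice (median 94.0) and from 44.4 to 99.6 CPM in B6.D2 mice (median 84.3). In 3 B6.D2 mice Clock was below every B6 value, and in 7 of 8 below the B6 median. This was a log2 fold change of −0.20 (SE 0.11, unadjusted p = 0.0966, FDR 0.564 in edgeR's quasi-likelihood test). Without B6.D2 mouse 1, in which long transcripts were low, it was −0.11 (SE 0.05, p = 0.0668 by the same test), and the longest Clock transcript is 8645 bases, the longest among the members. Npas2 (chromosome 1, 39193702 to 39363240), which can stand in for Clock, was at 58.3 to 81.0 CPM in B6 mice (median 66.6) and 52.4 to 73.7 CPM in B6.D2 mice (median 64.8). The ranges overlapped, and the log2 fold change was −0.08 (SE 0.08, FDR 0.737 in edgeR's quasi-likelihood test), and −0.04 without B6.D2 mouse 1. Npas2 was lower in mice with more multiply aligned reads (r = −0.69, rho = −0.69, permutation p = 3.2e-04, adjusted p = 0.016 over 50 relations of members with library measures, n = 16), with r = −0.66 without B6.D2 mouse 1 and −0.52 without the 2 mice farthest from the median of that share.

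Among the repressors, Per3 was the one member with an unadjusted p under 0.05 between genotypes, and Per1 had nearly equal means. Per1 (chromosome 11, 69095108 to 69109965) ran from 79.5 to 145 CPM in B6 mice (median 90.6) and from 67.7 to 123 CPM in B6.D2 mice (median 103). B6 mouse 7 was highest and B6.D2 mouse 1 lowest. Per1 had a log2 fold change of 0.01 (SE 0.13, FDR 0.989 in edgeR's quasi-likelihood test), and its sign turned with the cortical score as a covariate (−0.16). Per2 (chromosome 1, 91415977 to 91459351) ran from 34.1 to 48.7 CPM (median 38.6) in B6 mice and from 34.1 to 50.5 CPM (median 42.8) in B6.D2 mice, ranges that overlapped almost fully. The log2 fold change of Per2 was 0.06 (SE 0.09, FDR 0.843 in edgeR's quasi-likelihood test). Per3 (chromosome 4, 150997018 to 151044707) was at 50.9 to 82.8 CPM in B6 mice (median 67.1) and 66.5 to 80.0 CPM in B6.D2 mice (median 74.9). B6 mouse 4 had the highest value of all, while 7 of 8 B6.D2 mice were above the B6 median. Per3 had a log2 fold change of 0.16 (SE 0.08), with an unadjusted p of 0.0468 and an FDR of 0.491 in edgeR's quasi-likelihood test, and an exact two-sided permutation test of the mice gave p = 0.0511. That is 1 of 10 members at an unadjusted p under 0.05, against 10% of all genes tested (4.86% that were higher in B6.D2 mice). With a score of cortical markers as a covariate, its log2 fold change was 0.10 (p = 0.336 in edgeR's quasi-likelihood test). With the lane pair as a covariate it was 0.16, at an unadjusted p of 0.0536 in the same test.

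Cry1 (chromosome 10, 85131700 to 85185054) was at 18.5 to 24.7 CPM in B6 mice (median 20.5) and 18.2 to 23.0 CPM in B6.D2 mice (median 19.7). The groups overlapped, with a log2 fold change of −0.05 (SE 0.06, FDR 0.812 in edgeR's quasi-likelihood test). Cry2 (chromosome 2, 92403646 to 92434085) was at 136 to 162 CPM in B6 mice (median 146) and 147 to 161 CPM in B6.D2 mice (median 154). All 8 B6.D2 values were above the B6 median and none was above every B6 value. Its log2 fold change was 0.06 (SE 0.04, unadjusted p = 0.129, FDR 0.6 in edgeR's quasi-likelihood test). The SD of Cry2 was 9.42 CPM in B6 mice and 4.06 CPM in B6.D2 mice, a difference in spread that was not tested.

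The output genes had higher means in B6.D2 mice and did not pass the test. Nr1d1 (chromosome 11, 98767932 to 98775377), the repressor of Arntl, was at 147 to 185 CPM in B6 mice (median 161) and 165 to 191 CPM in B6.D2 mice (median 176). All 8 B6.D2 mice were above the B6 median, while B6 mice 4 and 8 reached 185 CPM. Nr1d1 had a log2 fold change of 0.09 (SE 0.05, unadjusted p = 0.112, FDR 0.583 in edgeR's quasi-likelihood test). Dbp (chromosome 7, 45705100 to 45710203), a PAR bZIP transcription factor that binds D-boxes, was at 57.8 to 96.8 CPM in B6 mice (median 70.0) and 69.8 to 92.1 CPM in B6.D2 mice (median 84.9). In 7 of 8 B6.D2 mice Dbp was above the B6 median, and the highest value belonged to B6 mouse 8. The log2 fold change was 0.18 (SE 0.09, unadjusted p = 0.0711, FDR 0.533 in edgeR's quasi-likelihood test). Within lane pairs it was 0.27 (lanes 5 and 6) and 0.09 (lanes 7 and 8). Annotated exons of Nr1d1, Dbp and Cry2 overlap genes on the opposite strand (Thra over 263 bases, Sphk2 over 491 and D930015M05Rik over 295), and the counting did not use strand. Per1 and Nr1d1 lie on the chromosome of the D2 segment, outside it by the study's marker genotypes.

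Of the 10 members, 6 had a higher and 4 a lower mean in B6.D2 mice, with a median log2 fold change of 0.03 against 0.01 over all genes tested, of which 54.9% were higher. None passed an FDR of 5% in edgeR's quasi-likelihood test, by edgeR's likelihood ratio test or by DESeq2, and 1 member was at an unadjusted p under 0.05 by each tool. Over all genes, 1 gene passed an FDR of 5% in edgeR's quasi-likelihood test, or 0.00641%, against 20 genes by the likelihood ratio test and 32 by DESeq2.

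**Figure D2:**
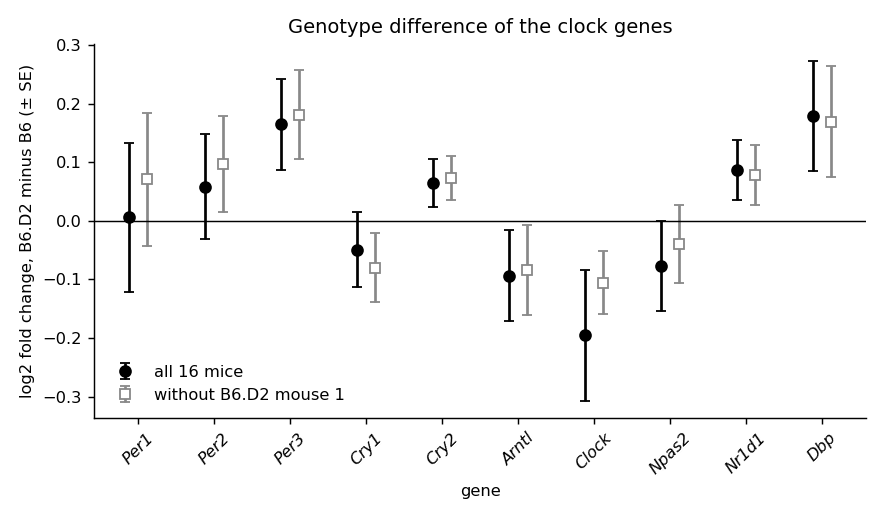
Log2 fold change of each clock gene, B6.D2 minus B6, with its standard error from edgeR, over all 16 mice (filled circles) and without B6.D2 mouse 1 (open squares). Clock moves from −0.20 to −0.11 without that mouse, and Per3 and Dbp have the highest values, 0.16 and 0.18.

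The lane pair was also compared, since it is the batch that the labels name. Per1 was at 89.4 ± 16.2 CPM in the 8 mice of lanes 5 and 6 and at 109 ± 17.8 CPM in the 8 mice of lanes 7 and 8 (SD), and the ranges overlapped. The log2 fold change of Per1 with lane pair was 0.28 (SE 0.11, unadjusted p = 0.0227, FDR 0.970 in edgeR's quasi-likelihood test), the only member of the 10 at an unadjusted p under 0.05, against 2.26% of genes tested. It was 0.21 without B6 mouse 7, and no member then reached that p. No gene passed an FDR of 5% between lane pairs in edgeR's quasi-likelihood test.

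Over the 16 mice, Arntl ran opposite to Nr1d1, while Nr1d1 ran with Dbp and with Cry2. Cry2 and Dbp had r = 0.56, which did not pass (adjusted p = 0.142 over 45 pairs, permutation), and 0.25 among B6.D2 mice. The 3 mice with the highest Arntl, B6 mice 3, 6 and 2, had 49.5, 45.4 and 45.1 CPM of Arntl and 159, 152 and 147 CPM of Nr1d1. B6 mouse 4, with the lowest Arntl at 31.8 CPM, had 185 CPM of Nr1d1. Arntl and Nr1d1 had r = −0.77 and rho = −0.79 over log2 CPM (permutation p = 5e-04, adjusted p = 0.0075 over the 45 pairs, n = 16 mice). The coefficient was −0.82 among B6 mice and −0.48 among B6.D2 mice, −0.72 for lanes 5 and 6 and −0.91 for lanes 7 and 8, and −0.77 without the 2 mice farthest from the median of Arntl. Among the 15588 other genes tested, Nr1d1 was the 12th from the lowest in its correlation with Arntl. The difference in r between genotypes was not tested, and Arntl spread less in B6.D2 mice (SD 2.80 CPM) than in B6 mice (SD 5.74 CPM).

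Nr1d1 and Dbp had r = 0.79 and rho = 0.78 (permutation p = 2.2e-04, adjusted p = 0.00495 over 45 pairs, n = 16). The coefficient was 0.81 among B6 and 0.54 among B6.D2 mice, 0.91 and 0.59 in the lane pairs, and 0.73 without the 2 mice farthest from the median of Nr1d1. Nr1d1 was the 10th highest of 15588 genes in its correlation with Dbp. B6 mouse 8 had the highest Dbp, 96.8 CPM, with 185 CPM of Nr1d1, and B6 mouse 1 the lowest, 57.8 CPM, with 158 CPM of Nr1d1. Nr1d1 and Cry2 had r = 0.81 (permutation p = 2.2e-04, adjusted p = 0.00495) and rho = 0.69, which did not pass adjustment (permutation p = 0.00452). Their r was 0.88 among B6 mice, 0.27 among B6.D2 mice, 0.83 and 0.80 in the lane pairs, and 0.71 without the 2 mice farthest from the median of Cry2. The B6.D2 mice spanned 147 to 161 CPM of Cry2, with an SD of 4.06 CPM against 9.42 CPM in B6 mice. The difference in r of this pair between genotypes was not tested.

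Per3 and Cry1, both repressors, ran opposite to each other. B6 mouse 8 had the lowest Per3, 50.9 CPM, and the highest Cry1, 24.7 CPM, and B6 mouse 4 the highest Per3, 82.8 CPM, and the second lowest Cry1, 18.5 CPM. Their r was −0.75 (permutation p = 0.001, adjusted p = 0.0112 over 45 pairs, n = 16) and rho −0.65, which did not pass adjustment (permutation p = 0.0079). The value of r was −0.87 among B6 and −0.55 among B6.D2 mice, and −0.62 and −0.84 in the lane pairs. Without the 2 mice farthest from the median of Per3 it was −0.52 (adjusted p = 0.235, permutation), and without B6 mouse 8 alone −0.58 (adjusted p = 0.0865, permutation), so the call rests on those mice. Cry1 had r = −0.62 and rho = −0.76 with the slope of log2 CPM on GC content, a measure of each library (permutation p = 0.0101, adjusted p = 0.213 over 50 relations), and r = −0.63 without the 2 mice farthest from its median. After that slope was taken out of both genes, Per3 and Cry1 had r = −0.65 (adjusted p = 0.101, permutation), while Arntl and Nr1d1 had −0.74 (adjusted p = 0.0166, permutation). Taken out likewise, it left Nr1d1 with r = 0.79 for Dbp and 0.82 for Cry2 (adjusted p = 0.00652 each, permutation), and Arntl with −0.47 for Cry2 (adjusted p = 0.229, permutation). The GC slope itself had r = 0.61 with Cry2, 0.57 with Per1 and −0.53 with Arntl, none past adjustment over the 50 relations.

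**Figure D3:**
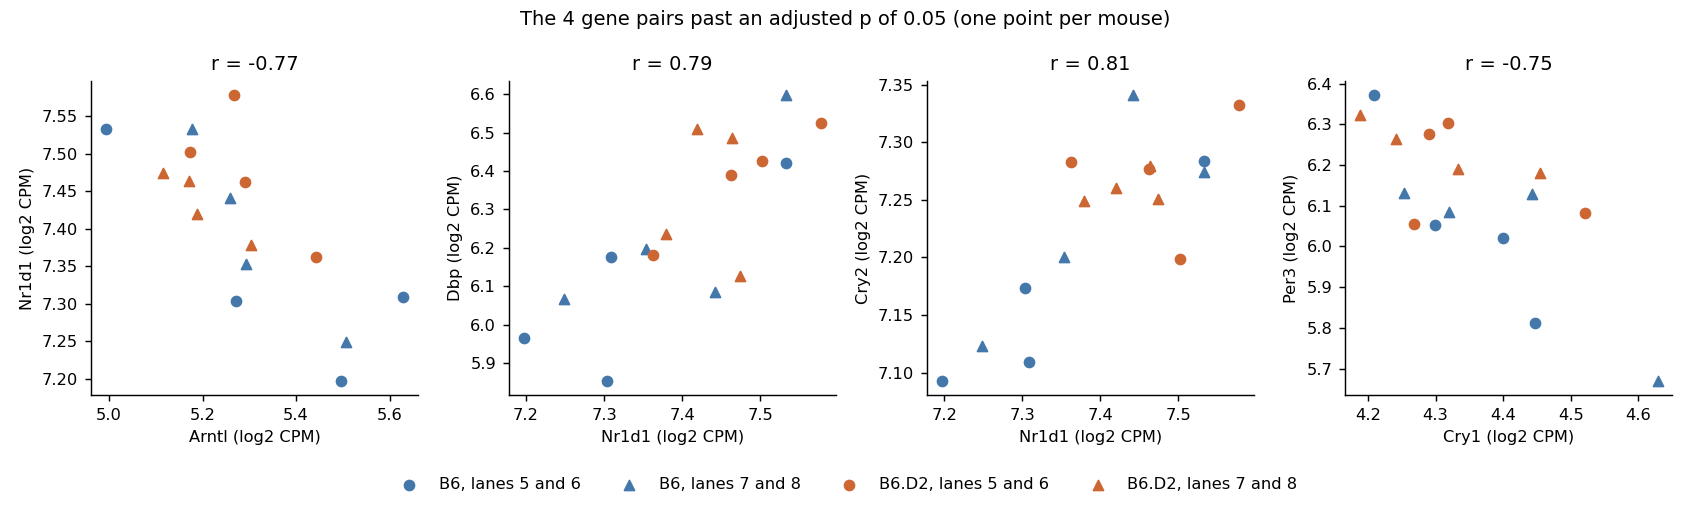
Log2 CPM in each of the 16 mice for the 4 pairs of clock genes past an adjusted p of 0.05 for Pearson's r, by genotype (colour) and lane pair (shape). Nr1d1 falls with Arntl (r = −0.77) and rises with Dbp (0.79) and Cry2 (0.81), and Per3 falls with Cry1 (−0.75).

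By Pearson's r these were the 4 pairs of 45 past an adjusted p of 0.05, and 27 pairs had a positive and 18 a negative coefficient. By Spearman's rho 3 pairs passed: Arntl with Nr1d1, Nr1d1 with Dbp, and Arntl with Clock. The remaining members followed the opposed arrangement less closely. Each of Arntl, Clock and Npas2 with each of Per1, Per2, Per3, Cry2, Nr1d1 and Dbp gave 18 pairs, of which 11 were negative, from −0.77 to 0.56 with a median of −0.18. Without B6.D2 mouse 1, 14 of the 18 were negative with a median of −0.41. Among B6 mice 14 were negative (median −0.40) and among B6.D2 mice 7 (median 0.19). Arntl was negative with each of Cry2 (−0.64, adjusted p = 0.0568, permutation), Nr1d1 and Dbp (−0.50, adjusted p = 0.234, permutation), and with Cry2 the coefficient was −0.81 among B6 and 0.38 among B6.D2 mice. Arntl and Clock had r = 0.47 but rho = 0.79, and without B6.D2 mouse 1 r was 0.73 (adjusted p = 0.0202, permutation). Clock and Npas2 had r = 0.48, which was −0.05 without B6.D2 mouse 1. Without that mouse 9 pairs passed, the 4 above and Arntl with Clock, Arntl with Cry2, Clock with Cry2, Per1 with Cry2, and Cry1 with Npas2. In those 15 mice the GC slope had r = −0.81 with Clock, −0.70 with Arntl and 0.62 with Cry2. By Pearson's r of log2 CPM these 5 pairs did not pass over all 16 mice, while Arntl with Clock passed by Spearman's rho (adjusted p = 0.0081, permutation). With the GC slope taken out over all 16 mice, Arntl with Clock had r = 0.62 (adjusted p = 0.0802, permutation). The 5 pairs were not tested in the 15 mice with the GC slope taken out. Per1 and Per2 had r of −0.22 and −0.10 with Arntl, and Per2 r of −0.13 with Nr1d1, none past adjustment.

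**Figure D4:**
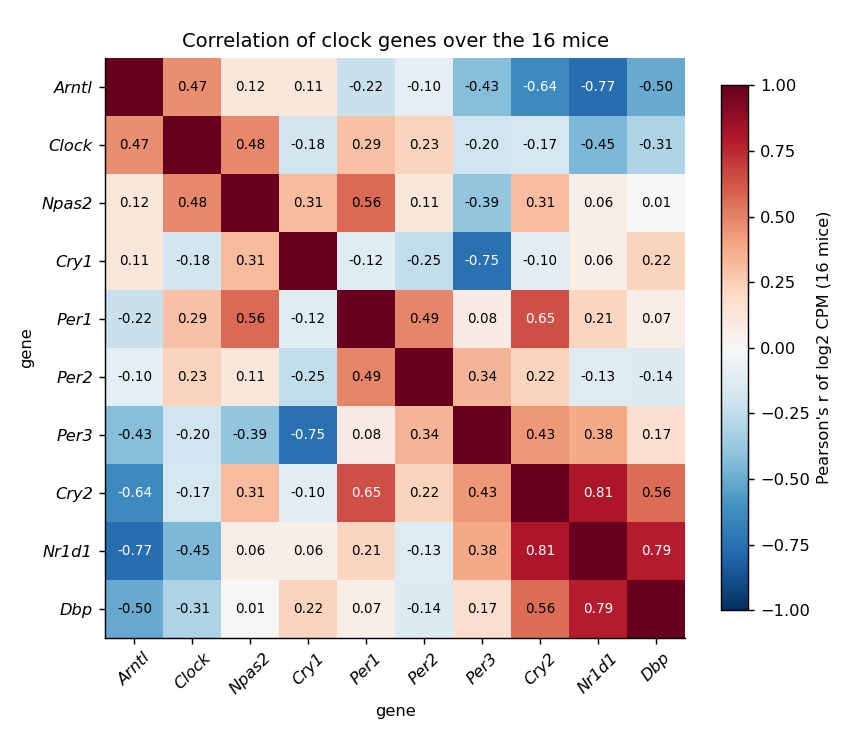
Pearson's r of log2 CPM over the 16 mice for each pair of clock genes (red, positive; blue, negative). The lower right corner holds Cry2, Nr1d1 and Dbp (0.56 to 0.81), and the top row shows Arntl opposed to them (−0.77 to −0.50).

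A further list of 22 clock-related genes was described beside the members. In edgeR's quasi-likelihood test 3 were higher in B6.D2 mice at an unadjusted p under 0.05 and 2 lower, against 10% of all genes, and none passed an FDR of 5%. The list had 10 genes higher and 12 lower, with a median log2 fold change of −0.01, against 0.01 over all genes tested. Bhlhe41, a repressor that competes for E-boxes, had 49.5 ± 6.00 CPM in B6 and 56.3 ± 5.06 CPM in B6.D2 mice (SD, n = 8 each), a log2 fold change of 0.19 (0.07 with the cortical score as a covariate). Usp2, a clock-controlled deubiquitinase, had 0.13, at an unadjusted p of 0.0497 in edgeR's quasi-likelihood test, which was 0.0785 without B6.D2 mouse 1 and 0.0373 with the cortical score (0.18). Rora, a receptor that activates through ROR elements, had 5.58 ± 1.18 and 3.66 ± 1.49 CPM with a log2 fold change of −0.62, which was −0.46 without B6.D2 mouse 1, where it was at 0.596 CPM. Wee1, a clock-controlled kinase, had −0.16. With the cortical score as a covariate Rora had −0.67 (p = 0.104) and Wee1 −0.12 (p = 0.164) in edgeR's quasi-likelihood test, and Bhlhe41 p = 0.431, so these were no longer at an unadjusted p under 0.05. The sums of cortical markers by genotype are given above.

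The same genes were set against Arntl and Dbp over the 16 mice (129 relations in all with the lists below). Gm129, an older symbol of the clock repressor Ciart, had r = −0.74 and rho = −0.70 with Arntl, and Bhlhe41 had −0.70 and −0.66, each with an adjusted p of 0.0381 by permutation. Without the 2 mice farthest from the median of Arntl the coefficients were −0.66 and −0.68. With Dbp, Bhlhe41 had r = 0.76 and rho = 0.74, and Tef, another PAR bZIP factor, 0.75 and 0.69, each with an adjusted p of 0.0381 by permutation. Tef with Dbp was 0.94 among B6 and 0.11 among B6.D2 mice. Hlf (0.66), Usp2 (0.67) and Nr1d2 (0.64), the remaining PAR factor, the deubiquitinase and the paralog of Nr1d1, did not pass adjustment. Over the 22 genes, 11 were positive with Arntl and 14 with Dbp, with medians of −0.07 and 0.12, against medians of −0.01 and −0.02 over all 15588 genes. Without B6.D2 mouse 1 the medians were −0.10 and 0.26.

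Per1 had r = 0.65 and rho = 0.61 with Cry2 (adjusted p = 0.0568 over 45 pairs, permutation), with 0.82 among B6 mice, 0.53 among B6.D2 mice and 0.68 without B6.D2 mouse 1 (adjusted p = 0.0301, permutation). Per1 was also set against genes induced by neuronal activity, of which 3 passed adjustment. Of 11 activity-regulated genes, 10 had a positive coefficient with Per1, with a median r of 0.58, against 49.6% positive and a median of −0.0045 over all genes. B6 mouse 7 was the highest mouse for several of the 11, so counts over this list are not counts of independent genes. Egr2, an early growth response transcription factor, had r = 0.72 and rho = 0.67 with Per1, Arc, a synaptic immediate early gene, 0.72 and 0.71, and Nr4a1, a nuclear receptor, 0.72 and 0.78, each with an adjusted p of 0.0381 by permutation over 129 relations (n = 16). Among B6 mice the coefficients were 0.72, 0.82 and 0.76, and among B6.D2 mice 0.91, 0.69 and 0.81. Without the 2 mice farthest from the median of Per1 they were 0.48, 0.59 and 0.55. All 11 activity-regulated genes had a lower mean in B6.D2 mice, 2 of them (Egr1 and Egr4) at an unadjusted p under 0.05 in edgeR's quasi-likelihood test, with a median log2 fold change of −0.28. Over all genes those shares were 45.1% and 10%. The cortical markers were lower in the same mice (12 of 12, median −0.54), and with the cortical score as a covariate Egr1 went from −0.28 to −0.30 (p = 0.116) and Egr4 from −0.35 to −0.16 (p = 0.453) in edgeR's quasi-likelihood test. The log2 fold change of Per1 itself was 0.01. With Dbp, 1 of the 11 was positive (median −0.18, against 47.9% and −0.02 over all genes), and with Arntl all 11 (median 0.22, against 49.2% and −0.01), none past adjustment. Of 10 glucocorticoid-regulated genes, 4 were positive with Per1 (median −0.14), and 7 without B6.D2 mouse 1 (median 0.15), so the sign rests on that library. None was at an unadjusted p under 0.05 between genotypes.

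**Figure D5:**
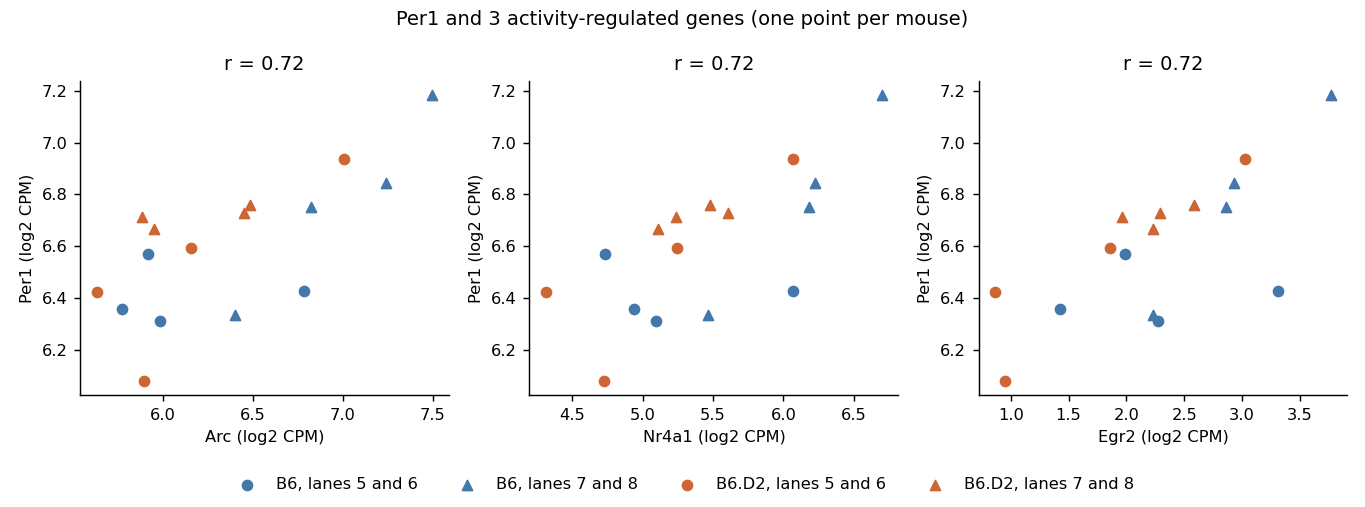
Log2 CPM of Per1 against Arc, Nr4a1 and Egr2 in each of the 16 mice, by genotype (colour) and lane pair (shape). Each coefficient is 0.72, and B6 mouse 7 is highest in Per1 and in all 3 early genes.

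Over all genes tested, the 10 most like Arntl were Fndc3b, Exoc5, Uhrf2, Med13, Cul5, Tmem167, Rabgap1l, Gpr151, Zfp871 and Trim9, with r from 0.76 to 0.84 over the 16 mice. The 10 most opposed were Trpc4ap, Ccdc97, Timp3, Milr1, Glb1, Eml2, Pfkm, Aldh7a1, 2310044G17Rik and Tkt, from −0.86 to −0.77. The genes most like Arntl had a median GC content of 41.4%, against 50.6% over genes with a value, and the most opposed 53.8% (8 of 10 with a value). The 10 most like Dbp were Zfp775, Lingo3, Adck3, Alg1, Lrrc10b, Rem2, Dhx32, Lrtm2, Tmem180 and Nr1d1, from 0.79 to 0.86. The 10 most opposed to Dbp were F830016B08Rik, Rbm4b, Grik1, E2f8, Rasa2, Ccdc85a, Plcz1, Slc8a1, Gm4787 and Rgs17, from −0.89 to −0.74. Their median GC contents were 56.8% and 43.5%. Of these 40 places, 1 was held by a member, Nr1d1 beside Dbp, and none by a gene of the further clock list. After the GC slope was taken out, Nr1d1 went from 12th to 115th lowest against Arntl and from 10th to 21st highest against Dbp, and Cry2 from 123rd to 2690th lowest against Arntl.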

How the data were processed

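Striatal RNA from 16 mice was sequenced as 50-base single-end stranded poly(A) libraries, and 31 lane files were analysed here (B6 mouse 7 had 1). Per the labels and the authors' scripts, reads were checked with FastQC 0.10.1, aligned with TopHat2 2.0.0 to mm10 and counted per gene with HTSeq 0.6.1p1 in union mode without strand. The deposited values are raw counts per gene. The authors' own comparison tables, holding fold changes, p-values and FDRs, were not used. Counter rows that name no gene were left out: 61.4% to 68.3% of reads were on genes, 0.824% to 1.07% ambiguous and 19.5% to 27.3% multiply aligned. For each mouse the lane files agreed within sampling noise (chi-square per degree of freedom 0.997 to 1.05 over 15 mice) and were summed. p-values measure the spread between these mice.

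Genes passing edgeR's filterByExpr were TMM-scaled and tested by genotype in edgeR 4.0.16 by quasi-likelihood (R 4.3.3, limma 3.58.1), with Benjamini-Hochberg adjustment over 15589 genes. Standard errors were log2 fold changes divided by the square root of F. log2 CPM used a prior count of 0.5. Home cage, which the study's model used, is not in the labels. Correlations used 100000 permutations (scipy 1.17.1), adjusted over 45 pairs, 129 list relations or 50 library measures. The GC and length slopes are the slopes, over genes, of a mouse's deviation in log2 CPM on GC content and on log2 transcript length. Alternatives were other normalizations, filters, DESeq2 1.42.0, covariates, subsets and leaving out each mouse, and the GC slope was chosen after seeing the data. Positions and promoters are those of RefSeq. Fits were tested on simulated data with 200 changed genes. Genes named are the members, the further clock genes at an unadjusted p under 0.05, and the 10 most and least correlated with Arntl and Dbp. One gene of the further clock list is not reported here and stays in its counts. Egr2, Arc, Nr4a1, Egr1, Egr4, Hlf, Tef, Nr1d2, Gm129 and Vip were named after their values were seen. The members and lists were chosen with earlier results of these data known, so the correlations are no independent support for that choice.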

Additional observations from a re-analysis of the deposited data

Results flagged for a closer look

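One value stood far from the others of its group. Clock in B6.D2 mouse 1 was at 44.4 CPM, and the next lowest B6.D2 mouse at 79.6 CPM, a gap of 0.637 of the group's range that is above Dixon's critical value for 8 mice. The 10 genes in both genotypes made 20 groups, and chance alone flags about 1 in 20. The same mouse was the lowest of the 16 for Per1, Per2 and Npas2, and it is the library in which log2 CPM fell with transcript length. The part of transcript length in the Clock value was not tested.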

How the results depend on the processing

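The number of genes past an FDR of 5% between genotypes was 1 and came to 32 with DESeq2, 20 with edgeR's likelihood ratio test, 2 with the lane pair or the GC slope as a covariate, and 0 with the cortical score or within either lane pair. With mice left out in turn it was 1 to 4 (4 without B6.D2 mouse 1, 3 without B6.D2 mouse 6). At an unadjusted p under 0.05 it was 1559, against 319 with the cortical score and 500 within lanes 5 and 6, and 1107 to 2087 with mice left out. With replicate number as a block, a pairing that the data did not bear out (same-numbered mice correlated at −0.12 to 0.36, with 3 of 8 over 0.1 and 2 of 8 B6 mice best with their own number), 0 genes passed and 0 members were at an unadjusted p under 0.05. No member passed an FDR of 5% under any of the 13 alternatives or without any mouse, which for differences as small as these says nothing of stability. The 1 member at an unadjusted p under 0.05 became 0 with the lane pair, cortical score or GC slope as a covariate, with the even lane alone and within lanes 5 and 6, and 3 within lanes 7 and 8 (Per2, Per3 and Clock), while the log2 fold change of Per3 was 0.16 in the full comparison, with the lane pair and on the even lane, 0.13 with the GC slope, 0.10 with the cortical score and 0.11 within lanes 5 and 6. With mice left out it was 0 to 3: 0 without B6 mice 1, 2, 3 or 6 or B6.D2 mice 2, 5, 7 or 8, 2 without B6 mouse 7 or 8, and 3 without B6 mouse 4. Between lane pairs the count of members was 0 to 1, 0 without B6 mouse 7. Of the 45 pairs, 4 passed over all mice, 0 among B6 mice, B6.D2 mice or either lane pair alone (8 mice each), and 4 to 9 with mice left out (9 without B6.D2 mouse 1). Over all mice, 3 passed by Spearman's rho, where Nr1d1 with Cry2 and Per3 with Cry1 did not, and 3 with the GC slope taken out. The count was 5 with genotype, or genotype and lane pair, taken out, and 5 with RLE normalization. It was also 5 without the 2 mice farthest from the median of a pair's first gene. The log2 fold change of Per1 turned to −0.16 with the cortical score, −0.0084 with the even lane, −0.094 within lanes 7 and 8 and −0.090 with the GC slope, and ran from −0.045 to 0.10 with mice left out. Per2 turned to −0.14 with the cortical score and −0.12 within lanes 5 and 6, Cry1 to 0.014 within lanes 5 and 6, Arntl to 0.012 with the cortical score, and the lane pair difference of Per2 to −0.048 in B6 mice. The cause of these changes was not tested. Per3, Cry2, Clock, Npas2, Nr1d1 and Dbp kept their direction under all 13 alternatives. With mice left out, the log2 fold change of Per2 ran from 0.016 (without B6.D2 mouse 7) to 0.10. That of Cry1 ran from −0.080 to −0.012 (without B6 mouse 8). For Arntl the values were −0.14 to −0.047 (without B6 mouse 3), and for Npas2 −0.11 to −0.039 (without B6.D2 mouse 1). Counting error was 1.74% to 4.91% of a member's value in the mouse with its fewest reads.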
